A study of Drosophila melanogaster with 62 samples.

Results

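Nuclear RNA of Nejire knockdown embryos of Drosophila melanogaster was compared with nuclear RNA of control embryos at stage 5, the cellular blastoderm. The libraries were chosen by their titles, and they were 6 of the 62 libraries of the series, 3 Nejire knockdown and 3 control. Nejire is the fly CBP, a lysine acetyltransferase and coactivator that acetylates histone H3 and is recruited to enhancers and promoters by many transcription factors. In the early embryo it is supplied by the mother, and it acts with the factors that read the maternal gradients when the zygotic genome becomes active. Nuclear RNA is enriched for transcripts that are being made or have not been exported, whereas total RNA also holds the cytoplasmic pool.

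The knockdown libraries carried the genotype label NejireKD and the control libraries the label control. Each came from nuclei of 300 stage 5 embryos, and 1 µl of ERCC spike-in RNA, diluted 1:1000, was added to every nuclear sample during extraction. The library names of the nuclear controls say WT, so the nuclear groups may differ in line as well as in Nejire, and these cannot be told apart. The sources used here do not give the driver or cross of the nuclear libraries. Total RNA from 3 NejireKD and 3 control samples of 20 stage 5 embryos each, whose controls are named Ctrl-KD, was set beside the nuclear values. The total RNA library names carry a code joined by x. Its first part differs between knockdown and control, and its second part is shared. The labels call the samples biological replicates without saying whether they came from separate crosses, so the p-values measure only the spread between these samples, which may be technical.

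The nuclear libraries held 15.4 to 20.7 M fly counts in the knockdown and 14.8 to 17.4 M in the controls, so depth was alike. Spike-in recovery was not. There were 282, 284 and 69.5 ERCC counts per M fly counts in knockdown replicates 1, 2 and 3, against 98.5, 99.98 and 134 in the controls. Knockdown replicate 3 was thus the lowest of all 6 libraries and replicates 1 and 2 were the highest, and the groups did not differ beyond this spread (212 ± 123 against 111 ± 19.8, SD, n = 3 each, 2-sided exact permutation p = 0.4). The ERCC totals were only 1437 to 5689 counts in the knockdown and 1477 to 2026 in the controls, and the most abundant ERCC transcript made up 25.1 to 27.9% of them in the knockdown and 26.1 to 26.3% in the controls. The main results are therefore given with 2 scalings. Fly gene scaling (TMM factors) gives changes relative to the other fly genes. ERCC scaling gives changes relative to the added RNA, which the labels state was meant to correct for a change in RNA per nucleus. CPM below are counts per M, taken over the library size after the scaling named.

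**Figure D1:**
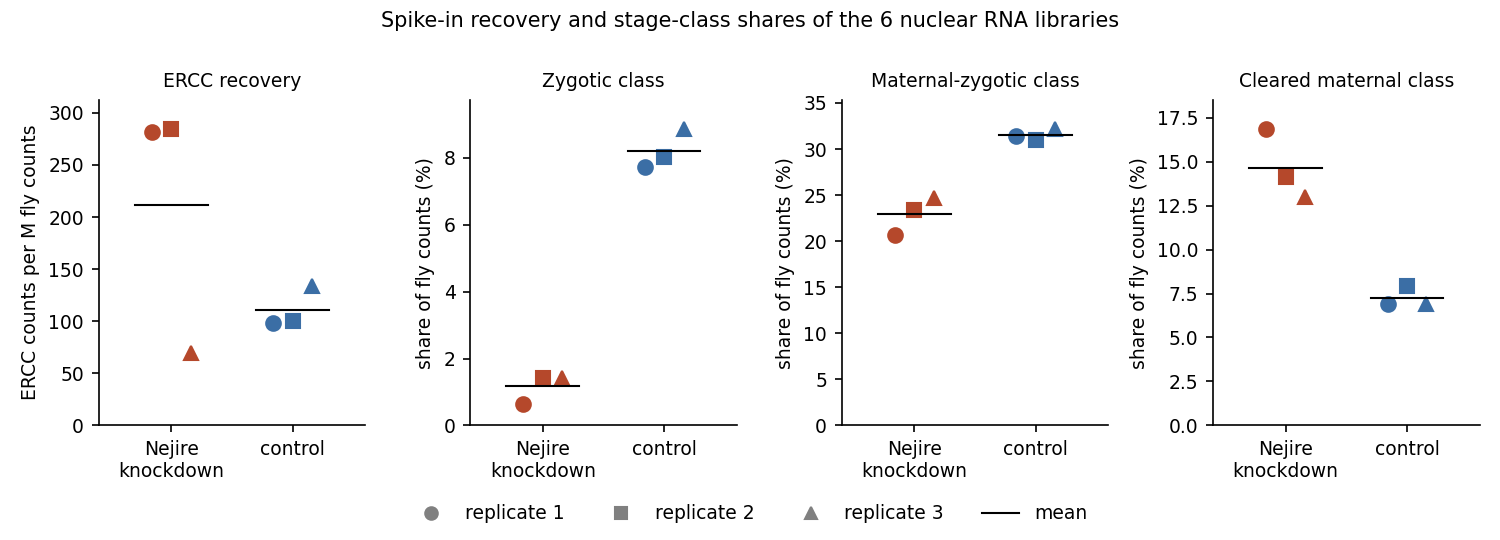
ERCC counts per M fly counts, and the share of fly counts (%) in genes of 3 stage classes, in the 3 Nejire knockdown libraries and the 3 control libraries. Points are libraries and lines are means; the knockdown libraries lie apart from the controls in the 3 class shares, whereas knockdown replicate 3 lies below and replicates 1 and 2 above the controls in ERCC recovery.

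The targeted gene was examined before all others. nej (FBgn0261617, X, 9665442 to 9687066, minus strand, dm6) was at 255, 344 and 553 CPM in the knockdown nuclei, against 1799.6, 2609.8 and 1914 CPM in the control nuclei (fly gene scaling). Every knockdown library lay below every control library. The log2 fold change was -2.46 ± 0.28 (± standard error, adjusted p = 6.99e-05, edgeR quasi-likelihood test). Under ERCC scaling nej was at 147, 215 and 1304 CPM against 2858, 3999 and 2226 CPM, again without overlap, with a log2 change of -2.45 ± 0.94 that did not pass the threshold of 0.05 (adjusted p = 0.0637).

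Relative to other fly genes, the nuclear RNA of knockdown embryos was changed over much of the transcriptome. Of 9295 genes tested, 5628 passed (60.5%), of which 2771 rose (29.8%) and 2857 fell (30.7%), and 328 fell by 16-fold or more against 145 that rose by as much. Under ERCC scaling 1248 passed (13.4%), and 327 genes rose (3.52%) and 921 fell (9.91%). No gene called under both scalings changed in opposite directions: 1247 genes were called under both with the same sign, and 1 gene was called with ERCC scaling alone. Genes not called under both could differ in sign between the scalings. The lower count with ERCC scaling went with a wider spread, a median standard error of 0.83 log2 units against 0.21, and with a median shift of -0.29 log2 units relative to fly gene scaling. Without knockdown replicate 3, ERCC scaling called 612 of 9395 genes up (6.51%) and 6660 down (70.9%), so counts of calls under that scaling turn on this library's spike-in. Without it the median over all genes was -1.27 log2 units. Without knockdown replicate 1 the ERCC-scaled counts were 769 up and 670 down.

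Genes were sorted by their behaviour in other control embryos of the series, from stage 2, when the embryo holds only RNA from the mother, to stage 5. Zygotic genes are near absent at stage 2 and rise at stage 5, maternal-zygotic genes are present at stage 2 and rise, cleared genes are maternal transcripts that fall, and stable genes keep their level. Zygotic genes made up 0.632, 1.43 and 1.43% of fly counts in the knockdown nuclei, against 7.74, 8.02 and 8.85% in the control nuclei. The groups did not overlap (2-sided exact permutation p = 0.1, the smallest that 3 against 3 allows). Cleared maternal genes moved the other way, with 16.8, 14.1 and 13.02% of counts in the knockdown and 6.91, 7.93 and 6.90% in the controls. Maternal-zygotic genes held 20.7, 23.4 and 24.7% against 31.4, 31.0 and 32.1%. In bulk samples fewer nuclei of a type and less RNA per nucleus cannot be told apart.

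Of 1168 zygotic genes tested, 862 fell (73.8%) and 51 rose with fly gene scaling, with a median log2 change of -2.20, against a median of -0.01 over all genes. Under ERCC scaling 572 of them fell and 9 rose, with a median of -2.40 against -0.29 over all genes. Of 1072 maternal-zygotic genes 540 fell (50.4%) and 55 rose (median -0.37) with fly gene scaling. With ERCC scaling 102 fell (9.51%, close to the 9.91% of all genes) and 3 rose, so their fall was found relative to other fly genes only. Of 2014 cleared genes 1103 rose (54.8%) and 310 fell (median 0.71) with fly gene scaling. Their ERCC-scaled calls were 47 up (2.33%, against 3.52% of all genes) and 13 down (0.645%, against 9.91%), with a median of 0.32. Of 1553 stable genes 514 rose (33.1%, against 29.8% of all genes) and 360 fell (23.2%, against 30.7%) with fly gene scaling (median 0.12). With ERCC scaling 5 of them rose (0.322%, against 3.52%) and 40 fell (2.58%, against 9.91%), with a median of -0.17. The fall of zygotic genes was thus found under both scalings, whereas most of the rise of maternal transcripts passed only relative to other fly genes.

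Among zygotic protein-coding genes the median change was lower for genes spanning 5 kb or more of the genome than for shorter ones. The median log2 change was -1.93 for 290 genes spanning under 2 kb, -1.81 for 249 genes of 2 to 5 kb, -2.46 for 262 genes of 5 to 20 kb, -3.24 for 117 genes of 20 to 50 kb and -3.10 for 56 longer genes. With ERCC scaling these medians were -2.26, -1.95, -2.57, -3.29 and -3.16. The number of introns showed no such order, with medians of -2.28 for 169 intronless genes and -2.16 for 322 genes with 6 or more introns (-2.52 and -2.18 with ERCC scaling). Cleared genes showed medians of 0.44 under 2 kb, 0.65 at 2 to 5 kb, 0.94 at 5 to 20 kb, 1.05 at 20 to 50 kb and 1.02 beyond, so both classes lay farther from 0 from 5 kb upwards. With ERCC scaling the cleared medians ran from 0.08 under 2 kb through 0.27, 0.63 and 0.87 to 0.79. These are descriptions across genes, which are not independent replicates. By chromosome, the median with fly gene scaling was 0.10 on the X (34.2% of 1557 genes rose and 25.8% fell, against 29.8% and 30.7% of all genes) and -0.37 on chromosome 4 (13 rose and 33 fell of 93), against -0.06 to -0.01 on the other arms. With ERCC scaling 54 genes on the X were up (3.47%, against 3.52% of all genes) and 95 down (6.1%, against 9.91%). The X median of -0.16 was then below 0, while it stayed above the -0.29 of all genes. Chromosome 4 had none up and 7 down with ERCC scaling (7.53% down, median -0.47).

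Genes that pattern the embryo were examined next, along the order in which segmentation proceeds. Of 137 measured genes on 9 lists of patterning and early zygotic genes, 114 fell (83.2%) and 10 rose (7.3%) with fly gene scaling, with a median log2 change of -3.21. In 118 of the 137 every knockdown library lay below every control library, compared with 35.5% of all genes tested. With ERCC scaling 93 fell and 1 rose (median -3.29), and 110 were without overlap on the low side, against 23.3% of all genes. Without knockdown replicate 3, 131 of 140 fell and 2 rose under ERCC scaling, a fit in which 70.9% of all genes fell.

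Gap genes encode the transcription factors that divide the embryo into broad regions. Of 17 measured, 15 fell and 2 rose (median -2.35), and with ERCC scaling 9 fell. Kr, the trunk gap gene (FBgn0001325, 2R, 25226611 to 25231394), was at 19.9, 40.2 and 43.8 CPM in knockdown nuclei, against 381, 415 and 394 CPM in control nuclei. The control libraries lay within a narrow band, and the highest knockdown library was far below it. Its log2 change was -3.52 ± 0.27 (adjusted p = 7.57e-06) with fly gene scaling and -3.60 ± 0.93 (adjusted p = 0.00178) with ERCC scaling. The POU-domain genes nub and pdm2 fell by 5.24 and by 4.39 on the log2 scale, the head gap gene slp1 fell by 2.83, and hkb, which acts at the termini, fell by 3.12. kni, the abdominal gap gene, fell by 1.98 with fly gene scaling, and its ERCC-scaled change of -2.05 did not pass (adjusted p = 0.0947). hb and cad, which are also loaded by the mother, were the 2 members that rose, a pair named after its values were seen, by 1.01 and 1.95, and neither passed with ERCC scaling.

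Pair-rule genes lay out the segments in alternate stripes. Of 11 measured, 10 fell and 1 rose (median -3.61), and 9 fell with ERCC scaling. run, a Runt-domain factor, was at 12.6, 15.96 and 25.7 CPM in knockdown nuclei, against 223, 223 and 244 CPM in control nuclei, and the groups did not overlap. It fell by 3.67 ± 0.25 on the log2 scale (adjusted p = 3.76e-06). opa, a zinc-finger factor that acts late among the pair-rule genes, was at 9.66, 20.9 and 31.7 CPM against 1141, 1149 and 1301 CPM, a log2 change of -5.85 ± 0.39. drm fell by 5.13 and sob by 3.61, both of them zinc-finger genes near odd, and the homeobox genes eve and ftz fell by 3.02 and 3.605. Each of these 6 genes also fell with ERCC scaling.

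Segment polarity genes fix the order of cells within each segment. Of 10 measured, 8 fell and none rose under either scaling (median -4.42 with fly gene scaling and -4.37 with ERCC scaling). en, the homeobox gene of posterior compartments (FBgn0000577, 2R, 11524006 to 11528210), was at 0.687, 0.765 and 0.954 CPM in the knockdown and at 26.4, 29.7 and 38.0 CPM in the controls. wg, the Wnt ligand (FBgn0284084, 2L, 7307159 to 7316265), was at 1.96, 2.30 and 3.10 CPM against 102, 89.7 and 118 CPM. All knockdown libraries lay far below the lowest control library for both genes. The log2 changes were -5.27 ± 0.25 for en and -5.39 ± 0.22 for wg. mid, a T-box gene, fell by 5.89 and gsb, a Pax gene, by 4.65.

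Homeotic genes give segments their identity, and their list had the lowest median of all lists described here, -5.12 with fly gene scaling and -5.53 with ERCC scaling. All 7 measured genes fell with fly gene scaling and 6 with ERCC scaling. Antp, which specifies thoracic segments (FBgn0260642, 3R, 6896253 to 6999228), was at 1.96, 3.41 and 4.77 CPM in knockdown nuclei, against 183, 213 and 272 CPM in control nuclei, a log2 change of -6.04 ± 0.31. A fraction of 0.501 of its exon bases overlapped other annotated genes, so part of its counts may belong to those. Scr and Dfd, which act in the head and first thoracic segment, fell by 5.61 and 5.68, and Abd-B, of the posterior abdomen, fell by 3.85. The noncoding transcripts of the same complexes also fell: lncRNA:bxd was at 1.08, 5.00 and 5.77 CPM against 138, 194 and 198 CPM (-5.49 ± 0.48), and lncRNA:iab8, with a fraction of 0.554 of its exon bases shared with other genes, fell by 5.94.

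**Figure D2:**
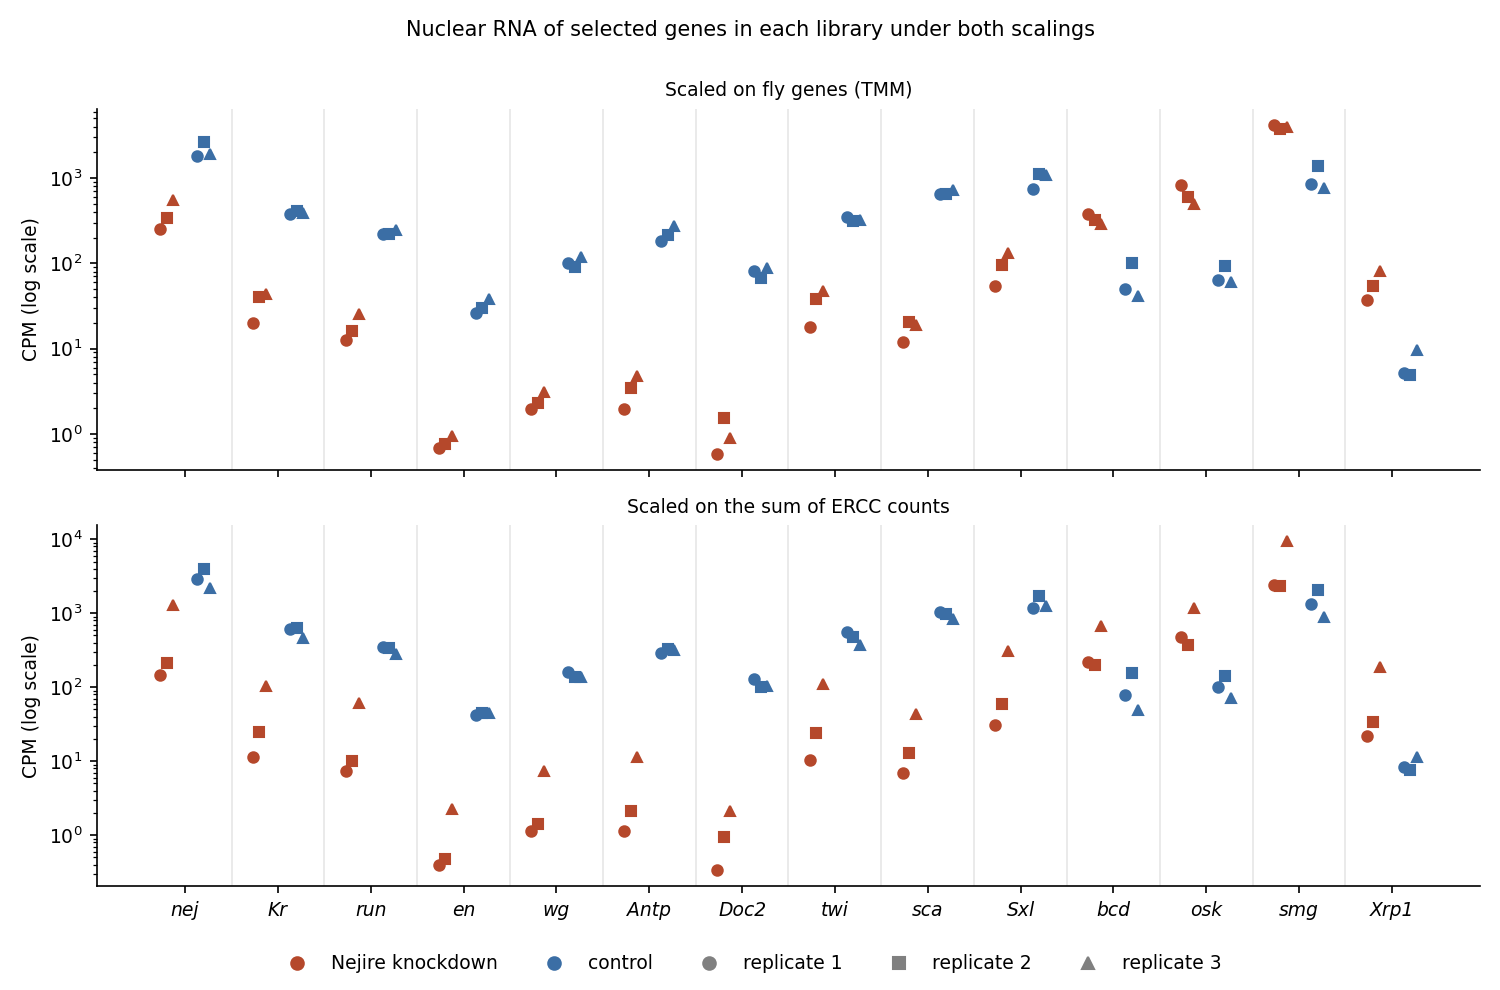
CPM on a log scale of 14 genes in each Nejire knockdown and control library, with fly gene scaling above and ERCC scaling below. The knockdown libraries lie below the controls for nej and the 9 zygotic genes to its right under both scalings, whereas for bcd, osk, smg and Xrp1 they lie above the controls, with knockdown replicate 3 raised against the other knockdown libraries under ERCC scaling.

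Genes of the dorsoventral axis were examined from the ventral to the dorsal side. In the mesoderm list 16 of 17 measured genes fell and 1 rose (median -3.93), and 14 fell with ERCC scaling. twi, the bHLH factor at the head of this fate, was at 17.9, 38.0 and 47.4 CPM in knockdown nuclei, against 353, 313 and 319 CPM in control nuclei, a log2 change of -3.25 ± 0.31 (adjusted p = 2.60e-05) without overlap. The zinc-finger repressor sna fell by 2.83 and the Wnt ligand wntD by 4.15. kn, a COE-family factor, fell by 6.22, and Mdr49, a transporter, by 4.28.

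In the neuroectoderm and mesectoderm list 18 of 21 fell and 1 rose (median -2.90), and 15 fell with ERCC scaling. sca, a secreted protein of proneural clusters, was at 11.97, 20.6 and 18.7 CPM against 651, 644 and 717 CPM. The highest knockdown library was far below the lowest control library. Its log2 change was -5.30 ± 0.22 (adjusted p = 3.15e-07). Ocho and Brd, of the Bearded family that restrains Notch signalling, fell by 4.93 and 3.05, E(spl)m5-HLH, a Notch-responsive repressor, fell by 4.41, and sog, the secreted inhibitor of Dpp, fell by 3.51.

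In the dorsal ectoderm list, which holds the Dpp ligand and its targets, 21 of 23 fell with fly gene scaling and the same number with ERCC scaling, and 1 rose with fly gene scaling (median -4.29). Doc2, a T-box gene of the amnioserosa, was at 0.589, 1.53 and 0.906 CPM in knockdown nuclei, against 81.7, 66.5 and 89.2 CPM in control nuclei. The paralogs Doc1 and Doc3 fell by 5.77 and 5.04 and Doc2 by 6.31. The Dpp ligand itself, dpp, fell by 3.24, and zen, the homeobox gene of dorsal-most cells, fell by 2.93 ± 0.15 (12.3, 14.7 and 15.1 CPM against 104, 118 and 99.1 CPM). emc, an HLH protein without a basic region, fell by 3.94.

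Of 12 measured genes of the gut and of the termini 8 fell and 1 rose (median -1.18), and with ERCC scaling 5 fell. byn, the T-box gene of the hindgut, fell by 5.18 and srp, the GATA factor of endoderm, fat body and blood, by 4.45, whereas tor, the maternal receptor of the terminal system and named after its values were seen, rose by 0.66 with fly gene scaling only.

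Among 23 measured genes of cellularization and the earliest zygotic wave, 15 fell and 3 rose (median -1.59), and 9 fell and 1 rose with ERCC scaling. btsz, a synaptotagmin-like protein, was at 70.5, 107 and 113 CPM against 2151, 2231 and 2264 CPM, a log2 change of -4.52 ± 0.19. halo, which sets the direction of lipid droplet transport, fell by 3.74, term, a zinc-finger gene, by 3.07 and trbl, an inhibitor of string, by 2.25, the last with an ERCC-scaled adjusted p of 0.0532. stg (string itself, the Cdc25 phosphatase), nullo and Cyp4p2, named after their values were seen, rose by 1.34, 0.98 and 4.28, of which only Cyp4p2 passed with ERCC scaling. The X-linked numerator sc fell by 2.27. In the JAK/STAT pathway, 3 of 7 measured genes fell, the ligands upd1 and upd2 by 2.62 and 2.86 among them, and 3 rose (median 0.00), of which the falls passed with ERCC scaling and the rises did not. The falls and the rises were each 42.9% of the list, against 30.7% and 29.8% of all genes with fly gene scaling.

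**Figure D3:**
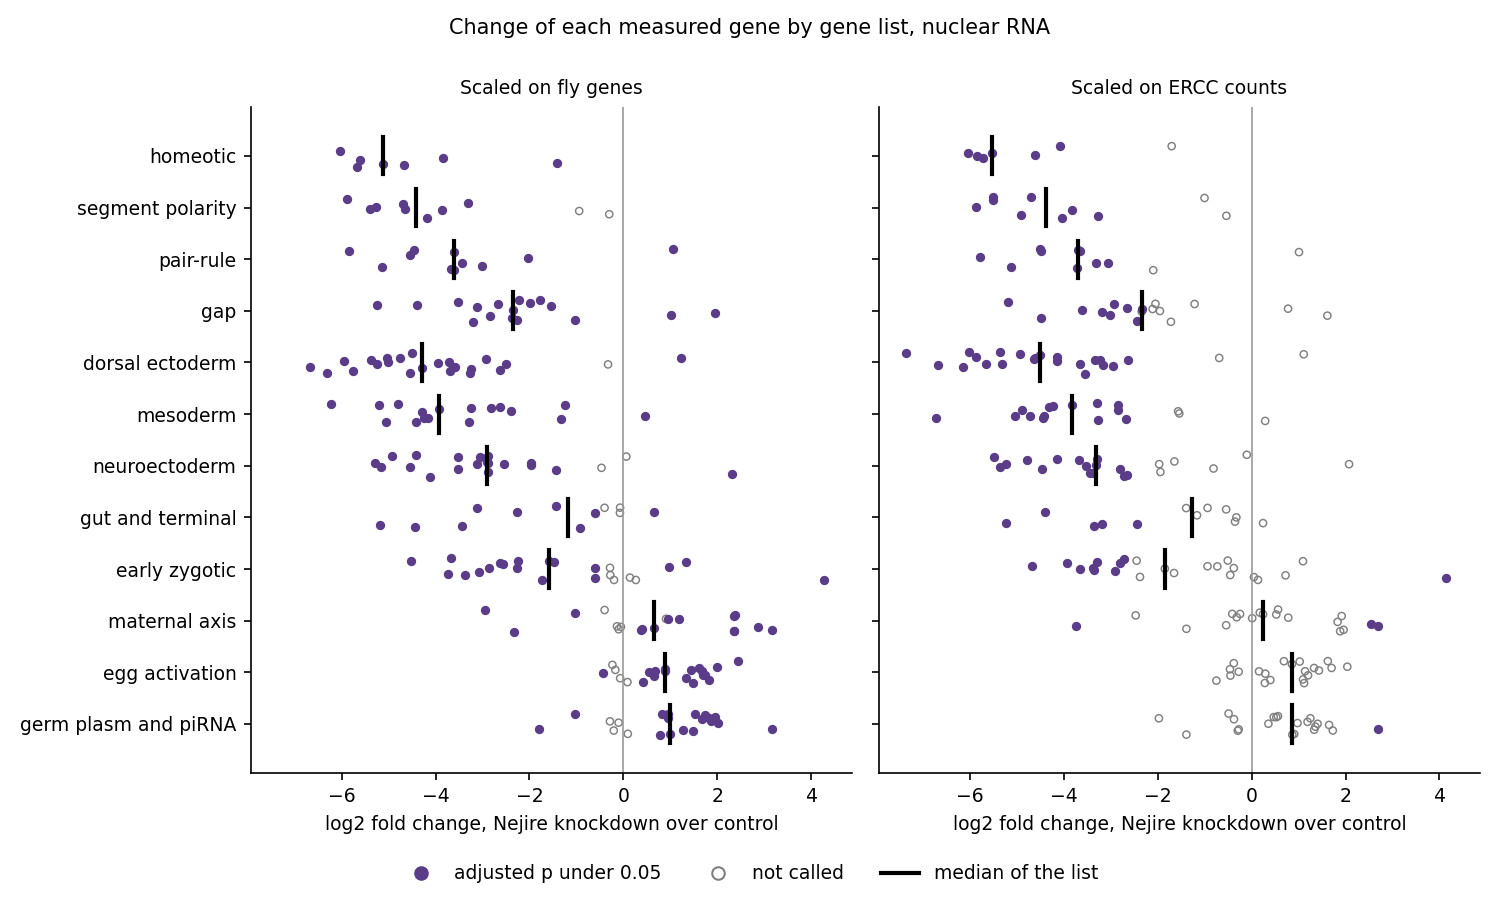
Log2 fold change (Nejire knockdown over control) of every measured gene of 12 lists, with fly gene scaling on the left and ERCC scaling on the right. Filled points passed an adjusted p of 0.05, open points did not, and bars are list medians. The medians of the patterning lists lie on the left of 0 under both scalings, and the medians of the 3 maternal lists lie on the right of it. Of 58 maternal genes 40 were called up on fly genes (69.0%, against 29.8% of all genes). On ERCC counts 2 were called up (3.45%, against 3.52% of all genes).

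Of 11 measured genes of sex determination and dosage compensation 6 fell (54.5%, against 30.7% of all genes) and 4 rose (36.4%, against 29.8%). With ERCC scaling 2 of the 11 fell (18.2%, against 9.91%). Sxl, the master switch of female development, was at 53.6, 96.1 and 131 CPM in knockdown nuclei, against 733, 1101 and 1077 CPM in control nuclei, a log2 change of -3.38 ± 0.31 (adjusted p = 2.36e-05) with fly gene scaling and -3.36 with ERCC scaling (adjusted p = 0.00564). msl-2, the male-limiting subunit of the dosage compensation complex, fell by 2.09, with an ERCC-scaled adjusted p of 0.0616. lncRNA:roX1, its noncoding partner on the male X, was at 459, 1074 and 1316 CPM against 2853, 3857 and 4615 CPM (-1.99 ± 0.34), a fall that did not pass with ERCC scaling (adjusted p = 0.169). lncRNA:roX2 fell by 2.40. mof, the acetyltransferase of that complex, rose instead, with 545, 460 and 579 CPM against 134, 124 and 114 CPM (2.09 ± 0.13, adjusted p = 2.41e-06), and its ERCC-scaled change of 1.88 did not pass (adjusted p = 0.159).

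Of 12 measured pioneer factors and other activators 7 fell (58.3%, against 30.7% of all genes) and 4 rose (33.3%, against 29.8%). With ERCC scaling 2 of the 12 fell (16.7%, against 9.91%). zld, the pioneer factor Zelda, was at 861, 1024 and 1744 CPM against 1952, 2395 and 2071 CPM, a log2 change of -0.82 ± 0.24 (adjusted p = 0.0134) with fly gene scaling, and -0.81 with ERCC scaling that did not pass (adjusted p = 0.737). dl, the NF-kappaB factor of the ventral side, rose by 2.36 (ERCC-scaled adjusted p = 0.0984), and grh, an epithelial pioneer factor, fell by 3.45. Of 26 measured genes of acetyltransferases and their complexes, nej included, 7 fell (26.9%, against 30.7% of all genes) and 6 rose (23.1%, against 29.8%), with a median of 0.17. With ERCC scaling 2 of the 26 fell (7.69%, against 9.91% of all genes), the SAGA subunit wda (-1.97 with fly gene scaling) and the ATAC subunit Atac2 (-2.17). Of 28 Mediator subunits 13 fell (46.4%, against 30.7% of all genes) and 2 rose, with the lowest values for MED30 (-2.18) and MED17 (-2.09). With ERCC scaling 2 of the 28 fell (7.14%, against 9.91% of all genes) and none rose. Of 29 subunits of RNA polymerase II, its general factors and elongation factors, 4 fell (13.8%) and 5 rose (17.2%), both below the shares of all genes, with a median of -0.06. CycT, the cyclin of P-TEFb, fell by 2.03 and Nelf-A, a pausing factor, by 1.53. None of these 29 passed with ERCC scaling.

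Maternal transcripts stood higher in knockdown nuclei relative to other fly genes. Over the maternal axis, egg activation and germ plasm lists together, 40 of 58 measured genes rose (69.0%) and 5 fell (8.62%), with a median log2 change of 0.92. With ERCC scaling 2 rose (3.45%, close to the 3.52% of all genes) and 1 fell (1.72%, against 9.91%), with a median of 0.63. Without knockdown replicate 3 the ERCC-scaled counts were 13 up and 23 down (median -0.32). Of all genes 6.51% were then up and 70.9% down, with a median of -1.27. The direction of the maternal median thus turned, while it stayed above that of all genes. bcd, the anterior gradient factor (FBgn0000166, 3R, 6755842 to 6759466), was at 375, 322 and 288 CPM in knockdown nuclei, against 49.5, 101 and 41.8 CPM in control nuclei, a log2 change of 2.36 ± 0.30 (adjusted p = 1.53e-04). Its ERCC-scaled change was 1.96 ± 0.85 and did not pass (adjusted p = 0.118).

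osk, which builds the germ plasm, was at 833, 603 and 498 CPM against 63.5, 92.4 and 60.7 CPM and rose by 3.16 ± 0.23, and it passed with ERCC scaling as well (2.70, adjusted p = 0.0262). A fraction of 0.841 of its exon bases overlapped other annotated genes. spz, the Toll ligand, rose by 2.86 (ERCC-scaled adjusted p = 0.016). smg, which directs clearance of maternal RNA, was at 4153, 3772 and 3966 CPM against 844, 1365 and 773 CPM (2.00 ± 0.21, ERCC-scaled adjusted p = 0.258). The translational regulators orb and bru1 rose by 2.43 and 1.83, and the piRNA pathway genes mael, del and rhi by 2.00, 1.95 and 1.52, with fly gene scaling but not with ERCC scaling. nanos, the posterior determinant, rose by 0.95 (adjusted p = 0.00207), and under ERCC scaling its groups overlapped. None of the genes named in this paragraph overlapped between groups with fly gene scaling.

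Of 161 measured small nucleolar RNAs, 102 fell (63.4%, against 30.7% of all genes) and none rose with fly gene scaling, with a median of -1.32. With ERCC scaling 22 fell (13.7%, not far from the 9.91% of all genes), with a median of -1.87 against -0.29 over all genes. Every knockdown library lay below every control library for 120 of the 161 with fly gene scaling, against 35.5% of all genes. The ERCC-scaled number was 143, against 23.3% of all genes. The summed share of these RNAs was 0.110, 0.119 and 0.0522% of counts in knockdown nuclei, against 0.112, 0.136 and 0.145% in control nuclei. It thus overlapped and was lowest in knockdown replicate 3. The summed share alone cannot show the part of this library in the fall of these RNAs. Cytoplasmic ribosomal protein genes had few calls: of 85 measured, 3 fell and none rose with fly gene scaling (median 0.05), and none passed with ERCC scaling (median -0.29). Without knockdown replicate 3, all 85 were called down under ERCC scaling, as were 70.9% of all genes.

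The 10 largest falls under the rule for named genes were spread over many functions. DIP-theta, a cell-surface immunoglobulin protein (FBgn0051646, 2L, 5626291 to 5658560), was at 0.0491, 0.118 and 0.0954 CPM, that is 1, 2 and 2 counts, against 28.3, 30.4 and 38.5 CPM, a log2 change of -8.44 ± 0.32 with fly gene scaling and -9.02 with ERCC scaling. C15, a homeobox gene of the amnioserosa, fell by 6.68, and DNaseII, an acid nuclease, by 6.64 (2.40, 3.18 and 1.29 CPM against 238, 220 and 221 CPM). Then came the transmembrane O-mannosyltransferase gene Tmtc2 (-6.52), the acetylcholine receptor subunit nAChRalpha5 (-6.44), the glycoprotein ana (-6.36) and Doc2. The adenylyl cyclase Ac78C (-6.28), the glutamate receptor-like mtt (-6.27) and the zinc-finger repressor Blimp-1 (-6.23) followed. All 10 fell under both scalings, and no library of the groups overlapped, which the rule required.

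The 10 largest rises among genes with a symbol and at least 5 CPM in the higher group, as the rule for named genes asks, were in genes near 0 in control nuclei. Hsp70Bb, a copy of the main heat shock chaperone (FBgn0013278, 3R, 12505793 to 12508139), was at 25.8, 42.5 and 57.4 CPM in knockdown nuclei, against 0, 0 and 0.0686 CPM in control nuclei. The summed counts were 2452 and 1, a scaled ratio of 1910.0 with an exact 95% interval of 342 to 75500 that covers counting error only. It rose under both scalings (adjusted p = 1.38e-06 with fly gene and 1.999e-12 with ERCC scaling), and in total RNA its log2 change was 6.77. Hsp70 copies are near-identical, so how reads were divided among them is uncertain: Hsp70Ba, named after its values were seen, fell by 2.74, and the other copies were below 1 CPM in every nuclear library. Over the heat shock list 6 of 9 measured genes rose (66.7%, against 29.8% of all genes) and 2 fell (22.2%, against 30.7%). With ERCC scaling 1 of the 9 rose and 1 fell (11.1% each, against 3.52% and 9.91% of all genes). Hsp26 rose by 1.97 and DnaJ-1, a co-chaperone, by 1.36 with fly gene scaling only, and the 0.51 of Hsp83 did not pass (adjusted p = 0.0623).

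The sulfotransferase genes St3 and St1, which are neighbours on 2R, rose as well. St3 was at 4.07, 15.8 and 10.8 CPM in knockdown nuclei, against 0, 0 and 0.0686 CPM in control nuclei, with a ratio of summed counts of 451 (exact 95% interval 80.6 to 17800). St1 was at 2.84, 8.42 and 5.91 CPM against 0.119, 0 and 0 CPM, a ratio of 127 (34.8 to 1050.0). Knockdown replicate 1 was the lowest of the 3 for both. The larval serum protein gene Lsp1beta and the adenosine deaminase-related Adgf-C had ratios of 85.7 (29.1 to 418) and 84.9 (28.8 to 414). GluRIIB, a glutamate receptor subunit of the neuromuscular junction, was at 19.03, 15.8 and 9.25 CPM against 0.178, 0.0714 and 0.343 CPM and rose by 6.16. The amidating lyase gene Pal2 (6.18), the proteasome subunit paralog Rpn12R (5.36), the matrix protein gene atk (5.28) and the cytochrome P450 gene Cyp4p3 (5.14) completed this group. Pal2 starts at 23688077 on 2R, just past the end of St3 at 23687980, and whether these genes rose separately was not tested. Knockdown replicate 1 was also the lowest of the 3 for the other genes of this group and for Hsp70Bb, except GluRIIB, for which it was the highest.

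Marker lists of other cell types and later stages were summed. Of 10 late epidermis, gut and fat genes none was measurable, and 9 were below 1 CPM in all 6 libraries. The late neural list summed to 85.7 to 221 CPM in knockdown nuclei and 382 to 558 CPM in control nuclei, the hemocyte list to 13.5 to 40.7 against 200.5 to 270.5 CPM, and the yolk nuclei list to 72.3 to 133 against 396 to 511 CPM. Members did not all follow these sums with fly gene scaling. Of 5 measured late neural genes 2 fell, elav and Syx1A, and 1 rose, futsch by 1.70. Of 6 measured hemocyte genes 2 fell, gcm and srp, which is also on the yolk nuclei list, and 2 rose, Ppn by 3.59 and Hml by 1.58. Of 5 yolk nuclei genes 4 fell and none rose. Of 4 measured late muscle genes 2 fell and none rose, and of 9 measured follicle, eggshell and yolk genes 3 rose and 2 fell. The testis list summed to 51.4 to 64.9 against 4.93 to 6.10 CPM, and bam, a germline differentiation gene, made up most of the knockdown sum. bam was at 62.7, 45.6 and 47.7 CPM against 3.21, 3.57 and 3.09 CPM (3.98 ± 0.20). Of 4 measured testis genes, bam included, 2 rose and 1 fell, and 6 of the 11 list genes were below 1 CPM in every library. Line markers also differed: y rose by 3.26 (16.9, 19.5 and 18.2 CPM against 2.32, 1.499 and 1.85 CPM) and w by 1.38, which for w held with fly gene scaling only. The part of the lines in the other changes was not tested. Genes encoded in mitochondria held 0 counts in every library, so they give no check of the purity of nuclei. Other nuclear RNAs were mixed. In controls, lncRNA:roX1 was at 2763 to 4436 CPM in nuclei and at 1190.0 to 1312 CPM in total RNA (unscaled CPM). lncRNA:Hsromega was at 467 to 862 against 105 to 138 CPM. Small nucleolar RNAs were lower in control nuclei (0.112 to 0.145% against 0.161 to 0.242% of counts), as were spliceosomal RNAs (0.049 to 0.058% against 0.093 to 0.156%). In the knockdown, lncRNA:roX1 overlapped between nuclei (463.5 to 1335 CPM) and total RNA (511.5 to 1108 CPM).

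Nuclear and total RNA of the same knockdown were then compared, with libraries that share no sample, as the nuclear effect minus the total RNA effect in a joint fit of 12 libraries. In total RNA fitted alone 2368 of 7301 genes passed (32.4%), of which 970 rose (13.3%) and 1398 fell (19.1%). The effects differed for 1341 of 9236 genes (14.5%), with 854 more positive (9.25%) and 487 more negative (5.27%) in nuclear RNA. Of the 854, 791 rose in nuclear RNA, and of the 487, 462 fell there. The split depends on the scaling: with TMM factors set within each RNA fraction 549 were more positive and 608 more negative, and the median difference over all genes shifted by -0.124 log2 units. Without control replicate 2 of the total RNA, 459 were more positive and 680 more negative. Control line and RNA fraction are confounded here, since the nuclear controls are named WT and the total RNA controls Ctrl-KD. The leading number of the library names also differs between the nuclear and the total RNA libraries, so whatever it stands for is confounded with RNA fraction too.

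Patterning genes had lower fold changes in nuclear than in total RNA. Of 127 genes of the 9 lists measured in both, 114 had a lower fold change in nuclear RNA, with medians over the lists of -3.21 in nuclear and -1.96 in total RNA. The difference itself was called negative for 66 of 136 genes and positive for 4, with a median of -1.23 against 0.09 over all genes. By list it was negative for 8 of 11 pair-rule, 7 of 9 segment polarity, 17 of 23 dorsal ectoderm, 10 of 17 mesoderm, 10 of 20 neuroectoderm, 3 of 8 homeotic, 6 of 23 early zygotic, 4 of 17 gap and 2 of 12 gut and terminal genes. The 4 positive calls, named after their values were seen, were the gap genes hb and cad and the early zygotic genes nullo and spri. en is an example: its total RNA levels were 0.85, 2.91 and 1.70 CPM against 1.71, 2.59 and 7.63 CPM and overlapped, while the nuclear groups were far apart, a difference of -4.17 ± 0.68 (adjusted p = 0.00113). For wg the difference was -2.75, for Antp -2.20, for twi -1.47, for sna -1.30, for ftz -1.25, for Kr -1.17 and for zen -0.88. The differences of sog (-1.25), dpp (-0.76), kni (-0.53), eve (-0.53) and sc (-0.09) did not pass, nor did those of zld (0.14) and nanos (0.50).

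Of 58 differences of maternal genes 18 were called positive (31.0%, against 9.25% of all genes), none negative and 40 neither way (median 0.67). For bcd, total RNA was at 140, 174 and 151 CPM in the knockdown and at 118, 62.2 and 65.8 CPM in the controls, a change of 0.91, and the difference was 1.56 ± 0.40 (adjusted p = 0.0186). For osk the difference was 2.24. Over the whole cleared class 477 of 2018 differences were called positive and 14 negative (median 0.57), and over the zygotic class 32 positive and 240 negative of 1180 (median -0.67).

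**Figure D4:**
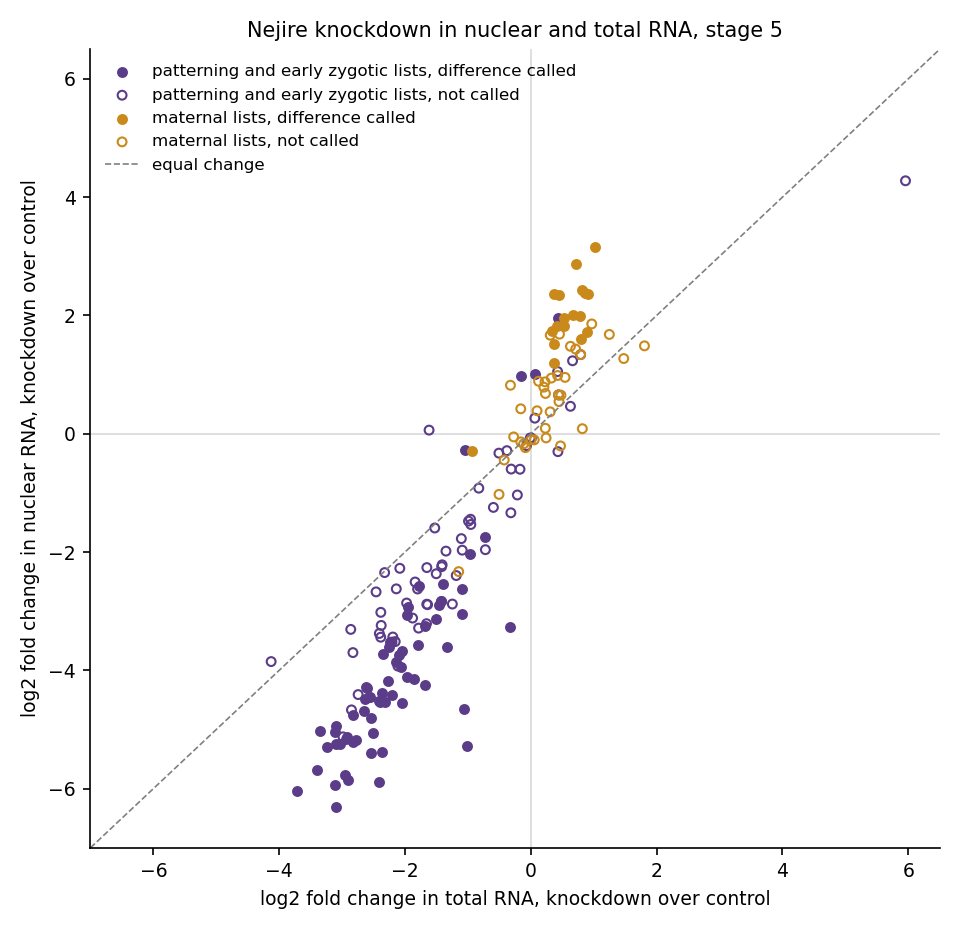
Log2 fold change in nuclear RNA against that in total RNA for genes of 9 patterning and early zygotic lists and 3 maternal lists; filled points have a called difference between them and the dashed line marks equal change. Of 127 patterning and early zygotic genes 114 lie below the line, and of 54 maternal genes 41 lie above it.

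Some single genes changed in nuclear RNA with little change in total RNA. Xrp1, a bZIP factor induced by genotoxic and proteotoxic stress, was at 37.4, 54.8 and 80.6 CPM in knockdown nuclei, against 5.22, 4.92 and 9.74 CPM in control nuclei, and rose by 3.12 ± 0.35 with fly gene scaling and 3.17 with ERCC scaling (adjusted p = 6.52e-05 and 0.00202). In total RNA it was at 12.9, 13.3 and 19.2 CPM against 16.9, 13.3 and 13.2 CPM, with overlap and a change of 0.05 (adjusted p = 0.89), and the difference was 3.18 (adjusted p = 3.51e-04). Over its stress list, Xrp1 included, 5 of 16 measured genes rose and 3 fell, near or below the shares of all genes, and with ERCC scaling 1 rose and 1 fell. mof behaved alike, with 312, 326 and 391 CPM against 285, 335 and 293 CPM in total RNA and a difference of 2.02.

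Among genes that meet the rule for named genes, the largest positive differences were St1 (6.39), Rgk2, a GTPase of the RGK family (4.28), Dh44-R2, a diuretic hormone receptor (4.21), Proc-R, the proctolin receptor (4.20), Pde9, a cyclic nucleotide phosphodiesterase (4.00), and Rph, a rabphilin (3.86). Dh44-R2 was at 29.9, 27.3 and 27.6 CPM in knockdown nuclei and 0.95, 1.93 and 0.686 CPM in control nuclei, but at 6.04, 13.7 and 15.1 CPM against 5.29, 11.1 and 7.63 CPM in total RNA. The nuclear groups were apart and the total RNA groups overlapped. Rgk2 was near 0 in total RNA, at 0.17, 0 and 0.34 CPM in the knockdown against 0, 0.37 and 0.80 CPM. Its difference therefore had a wide standard error of 1.22. The difference of Rph came from total RNA, where it was at 1.53, 0.546 and 1.02 CPM against 7.17, 12.8 and 5.62 CPM, while its nuclear change of 0.78 did not pass (adjusted p = 0.0826). w had a difference of 4.29, with 0.255, 0.182 and 0.681 CPM against 2.90, 2.35 and 2.41 CPM in total RNA, and y and bam had differences of 2.29 and 3.11.

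Under the same rule, the most negative differences were LUBEL (-7.58), Dscam4 (-5.40), DIP-theta (-5.28), C15 (-4.70), DNaseII (-4.32) and en. C15 was low in total RNA, at 0.17, 1.09 and 0 CPM in the knockdown against 1.19, 1.48 and 1.20 CPM, and its difference had a standard error of 1.09. LUBEL, a ubiquitin ligase that makes linear chains, was at 0.392, 0 and 0.0477 CPM in knockdown nuclei and 5.28, 5.64 and 8.02 CPM in control nuclei, yet at 4.68, 3.82 and 3.57 CPM against 1.02, 0.370 and 1.20 CPM in total RNA. It thus fell in nuclear and rose in total RNA. Dscam4, a cell adhesion protein of the Dscam family, was at 17.3, 24.2 and 31.4 CPM against 22.6, 27.98 and 26.3 CPM in nuclei, with overlap, and at 26.4, 26.8 and 27.6 CPM against 0.683, 0.494 and 0.803 CPM in total RNA. For Dscam4 it was the total RNA controls that stood apart from the other 3 groups.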

How the data were processed

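The authors deposited raw counts per fly gene for nuclear and total RNA, with 92 ERCC rows in the nuclear table. The submitters' processing notes name bcl2fastq 2.20.0.422 and build dm6. The sources used here do not give the aligner, counter, annotation or strand setting, so overlapping and antisense genes may share reads. Groups follow the sample titles. Of 17753 gene identifiers 17626 (99.3%) matched Ensembl release 115, which gave symbols and dm6 coordinates.

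The low-count filter was filterByExpr (at least 10 counts, and 15 over all libraries). The main test was the quasi-likelihood F test of edgeR 4.0.16 (R 4.3.3, limma 3.58.1), with Benjamini-Hochberg adjustment over all genes tested and calls at 0.05. Standard errors are the log2 fold change over the root of F, and they carry depth and spread together. Fly gene scaling used TMM factors, and ERCC scaling set each library to its ERCC sum. The common biological coefficient of variation was 0.195 with fly gene scaling and 0.61 with ERCC scaling. The joint fit of 12 libraries used TMM factors. Stage classes came from control libraries that enter no other comparison. Replicate libraries differed beyond counting noise. Whether replicate numbers in the titles pair the samples could not be told, and the main tests left the samples unpaired. The library name of nuclear control replicate 3 carries another replicate number than its title. The script was tested on simulated data.

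The named genes are nej, the 10 largest rises and falls (protein-coding with a symbol, at least 5 CPM in the higher group, no overlap under either scaling), the 6 largest differences each way, the genes of lowest adjusted p in each list (up to 4), and a panel of patterning genes. Members and lists were chosen with earlier results of these data known. Alternatives were other scalings, no filter, DESeq2 1.42.0, a replicate block and each library left out.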

Additional observations from a re-analysis of the deposited data

Results flagged for a closer look

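The effect of the Nejire knockdown differed between nuclear and total RNA, by the test of the difference, for 1341 genes. Among the genes named, the nuclear effect was lower than the total RNA effect by log2 differences of -7.58 for LUBEL, -5.40 for Dscam4, -5.28 for DIP-theta, -4.70 for C15, -4.32 for DNaseII, -4.17 for en, -2.75 for wg, -2.20 for Antp, -1.47 for twi, -1.30 for sna, -1.25 for ftz, -1.17 for Kr and -0.88 for zen. It was higher by 6.39 for St1, 4.29 for w, 4.28 for Rgk2, 4.21 for Dh44-R2, 4.20 for Proc-R, 4.00 for Pde9, 3.86 for Rph, 3.18 for Xrp1, 3.11 for bam, 2.29 for y, 2.24 for osk, 2.02 for mof, 1.56 for bcd and 0.86 for Hsp83. The value of St1 depends on the prior count, since its control nuclei held 2 counts in all. Those of Rgk2 and C15 rest on low total RNA counts. The control line and the leading number of the library names move with the RNA fraction in every one of these differences, and they cannot be told apart.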

How the results depend on the processing

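With fly gene scaling, 101 of the 105 genes named kept their direction and their side of the threshold under every alternative tried; with ERCC scaling 60 of 105 did, and of the 27 differences between nuclear and total RNA 20 did. Leaving out each library in turn, ERCC scaling called 548 to 7272 genes (93 to 769 rose and 449 to 6660 fell). Without knockdown replicate 3 it called 7272, without knockdown replicate 2 it called 801, and without control replicates 1, 2 and 3 it called 548, 560 and 593. The differences called ranged over 700 to 1649 (398 to 1026 more positive and 297 to 680 more negative), with 700 called without nuclear control replicate 3, 837 without nuclear control replicate 1, 738 without total RNA knockdown replicate 1 and 897 without total RNA knockdown replicate 3. With the replicate number as a block, 5709 genes were called with fly gene scaling, 716 with ERCC scaling (107 rose, 609 fell) and 1043 differences. Between libraries of the same number, the correlations of deviations were 0.304, -0.159 and 0.375. Knockdown replicates 1 and 3 correlated best with the control of their own number, and replicate 2 did not. With 3 libraries per group this cannot tell whether the numbers pair the samples. TMM over stable genes shifted all nuclear changes by -0.122 at the median (2472 rose, 3284 fell) and total fly counts by 0.117 (3217 rose, 2575 fell). DESeq2 called 861 differences more negative, and TMM within each RNA fraction called 549 more positive. Values that did not pass changed sign for a few genes when 1 library was left out: Dscam4 ranged from -0.29 to 0.10 with fly gene scaling (0.045 with total fly counts), and with ERCC scaling Dscam4 ranged from -1.53 to 0.29, Hsp83 from -0.63 to 0.43 (-0.14 with the block), Rph from -0.59 to 1.12 and nanos from -0.18 to 0.84. The causes were not tested. Sequence motifs at promoters were not analysed here.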
